A study of Mus musculus with 6 samples.

Results

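The superoxide dismutase genes Sod1, Sod2 and Sod3 and the copper chaperone gene Ccs were described in RET cells, a mouse melanoma line. The genes were taken by symbol from the array table, from rows annotated with exactly 1 gene symbol and with 1 row per gene (the row with the highest mean over the 6 arrays). All 4 were found, among 22180 genes measured, each on a single transcript cluster. They were chosen with the difference between the shRNA groups already known, so that difference is given here for each gene as a description and without a p-value.

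Each group had 3 cultures of the same line, labelled as strain C57BL\6. Control cells carried a non-targeting short hairpin RNA (control shRNA, with GFP in the sample titles), and silenced cells carried a hairpin against Angpt2, which encodes the secreted ligand angiopoietin-2 (Angpt2 shRNA-1). Cells were grown for 24 h in high-glucose medium with serum, and total RNA of each culture was hybridised to its own Affymetrix Mouse Gene 2.0 ST array. The samples used here hold a single hairpin against Angpt2 in a single line and no rescue, so an effect of Angpt2 loss and any other effect of this hairpin or of the transduced cells cannot be told apart. The question put to the data was how transcripts of the superoxide-removing enzymes stood in tumour cells with and without the hairpin.

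Superoxide dismutases turn superoxide into hydrogen peroxide and oxygen, and catalase, glutathione peroxidases and peroxiredoxins then remove the peroxide. Sod1 is the copper-zinc enzyme of the cytosol and the mitochondrial intermembrane space, Sod2 is the manganese enzyme of the mitochondrial matrix, and Sod3 is the secreted copper-zinc enzyme of the extracellular matrix. Ccs hands copper to Sod1 and helps to form its disulfide bond. Pigment cells face oxidants from melanin synthesis as well as from respiration.

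The factors known to read GC boxes (Sp1) and antioxidant response elements (Nfe2l2) are among the regulators given further on. Sequences just upstream of Sod1 and Sod2 are therefore shown, as only these 2 of the 4 genes had a promoter window. They are the 250 bases before the annotated start in RefSeq (GRCm38.p6), at chr16:90220512-90220761 on the plus strand for Sod1 and chr17:13007589-13007838 on the plus strand for Sod2, written 5′ to 3′. Capitals mark matches, on either strand, to the GC box GGGCGG, the TATA box TATAAA, the CCAAT box CCAAT and the core of the antioxidant response element TGACNNNGC. Windows matched 2 of the 4 genes.
Sod1: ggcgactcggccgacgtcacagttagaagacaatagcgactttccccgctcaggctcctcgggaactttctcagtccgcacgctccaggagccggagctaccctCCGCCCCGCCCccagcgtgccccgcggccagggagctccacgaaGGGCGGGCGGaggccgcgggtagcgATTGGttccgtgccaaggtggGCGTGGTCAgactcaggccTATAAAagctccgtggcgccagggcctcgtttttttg
Sod2: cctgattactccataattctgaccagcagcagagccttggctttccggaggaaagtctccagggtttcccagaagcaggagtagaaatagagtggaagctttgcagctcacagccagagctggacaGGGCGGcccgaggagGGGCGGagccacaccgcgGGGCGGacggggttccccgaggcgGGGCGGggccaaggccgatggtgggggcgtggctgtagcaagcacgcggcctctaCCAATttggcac
Both windows hold 4 GC box matches. Those of Sod1 form 2 overlapping pairs, on the minus strand between 146 and 136 bases upstream and on the plus strand between 102 and 93 bases upstream, whereas the 4 of Sod2 lie apart, all on the plus strand, with first bases 124, 109, 91 and 67 bases upstream. Sod1 has a TATA box match 37 to 32 bases upstream, and the Sod2 window has none. The CCAAT match is at 77 to 73 bases on the minus strand in Sod1 and at 12 to 8 bases on the plus strand in Sod2. The antioxidant response core has a match in Sod1 alone, 56 to 48 bases upstream on the minus strand. Over the 32851 windows of this length in the promoter table, 32.7% hold the GC box, 12.4% the TATA box, 33.9% the CCAAT box and 10.2% the antioxidant response core. G or C makes up 66.4% of the Sod1 window and 63.6% of the Sod2 window, against a median of 52.4% over all windows. A match is a string of letters and not a measured binding site.

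The hairpin and the identity of the cells were checked first. Angpt2 intensity was 195, 372 and 326 in control replicates 1, 2 and 3 and 100.2, 122 and 122 in the silenced cultures, a log2 difference of -1.33 (SE 0.21). Its limma adjusted p was 1.00 over all genes and 0.046 with the replicate number as a block. At the adjusted threshold of 0.05 limma called 0 of 22180 genes (0%), while 835 genes (3.76%) had an unadjusted p under 0.05. A fit blocked on replicate called 2 genes, Angpt2 and Pld4. Melanocyte markers were bright on every array, with Tyrp1 at 8904 to 9651 and Dct at 8244 to 8953, although Ednrb, also on that list, was at 63.0 to 87.9. Of the 9 melanocyte markers 7 had negative differences and none was called, where 45.2% of all genes had a positive difference. Mitf, the lineage's master regulator, was lower in every silenced culture (2414 to 2537) than in any control culture (2681 to 2970). Its difference was -0.20 (SE 0.08), and groups did not overlap in that direction for 5.48% of all genes. The summed intensity of the 9 melanocyte markers was 37150 to 40409 in controls and 36417 to 39218 in silenced cells. Markers of other cell types were dim: all 7 endothelial, 7 immune, 7 fibroblast and 4 keratinocyte markers measured lay between 45.2 and 270.4, where array medians were 74.5 to 76.2, and none of them was called. The groups did not overlap for 1 of them, Pdgfrb (0.16, SE 0.09), higher in silenced cells, as for 3.53% of all genes in that direction. The part of Mitf and Pdgfrb in the results that follow was not tested. Summed levels in controls and silenced cells were 531.0 to 606 and 551 to 594 for endothelial markers, 495 to 568 and 519 to 535 for immune markers, 693 to 734 and 713 to 766 for fibroblast markers, and 266 to 295 and 253 to 283 for keratinocyte markers. The table has no detection calls, so a dim signal cannot be told from background. Intensities of different genes are not set against each other, except as ratios that are then compared between cultures.

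Sod1 stood higher in every silenced culture than in any control culture. Its intensity was 1818, 1870 and 1943 in control replicates 1, 2 and 3 and 2262, 2480 and 2371 in silenced replicates 1, 2 and 3. The control cultures lay close together, the silenced cultures lay close together, and between the highest control and the lowest silenced culture there was a gap of 0.22 on the log2 scale, wider than the range within controls (0.10) or within silenced cells (0.13). On the log2 scale the level was 10.87 ± 0.05 in controls and 11.21 ± 0.07 in silenced cells (SD, n = 3 each), a difference of 0.34 (SE 0.08), or 1.26-fold. Over all genes, the groups did not overlap for 9.01%, and for 3.53% with silenced cells the higher. This contrast was known when Sod1 was chosen, so nothing is read from that share.

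The Sod1 difference was of like size in each replicate and without each array. It was 0.32, 0.41 and 0.29 between same-numbered cultures 1, 2 and 3. Leaving out 1 array at a time gave 0.30 to 0.37, and quantile normalization gave 0.35. Among all genes, 130 (0.586%) had a higher log2 difference than Sod1, a rank on the same contrast that was known when Sod1 was chosen. The spread of Sod1 within groups was small. Its pooled SD of 0.06 on the log2 scale was larger than that of 8.22% of genes, where the median gene had 0.12. A small spread makes a contrast stand out, and this contrast was known beforehand, so nothing is read from that share.

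**Figure D1:**
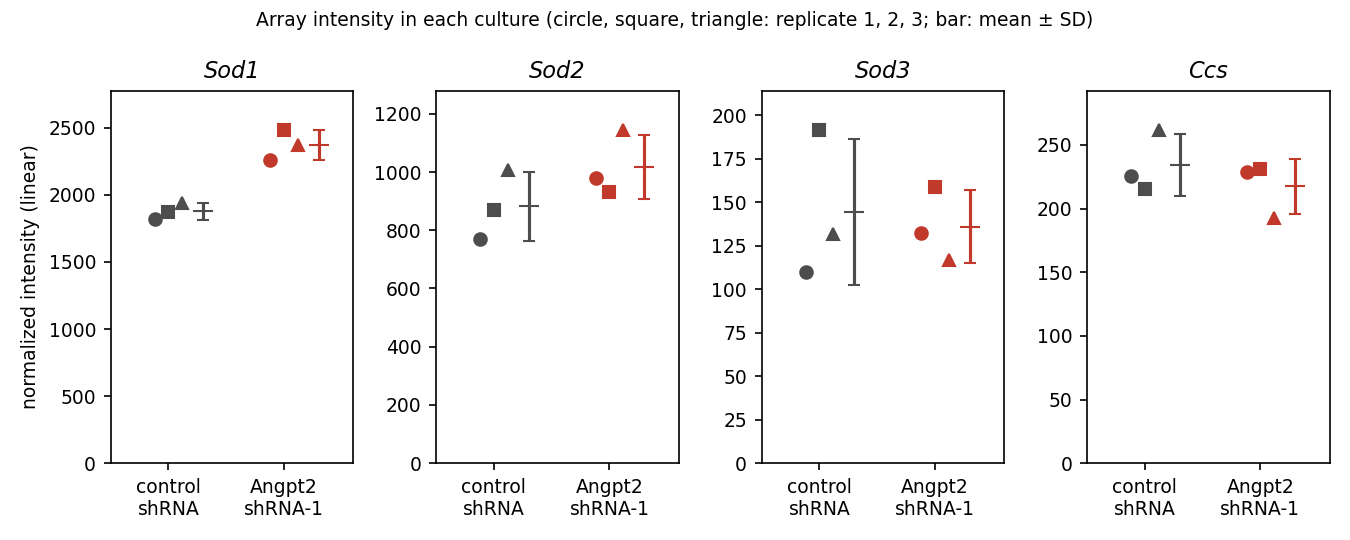
Normalized linear intensity (y axis, from 0, a separate scale per gene) of Sod1, Sod2, Sod3 and Ccs in 3 control shRNA cultures (grey) and 3 Angpt2 shRNA-1 cultures (red), with symbols for the replicate number and the mean ± SD beside them. Sod1 lies between 1818 and 1943 in controls and between 2262 and 2480 in silenced cells, and the groups of the other 3 genes overlap.

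Sod2, the matrix enzyme, had a higher mean in silenced cells, but its groups overlapped. Intensity was 770.0, 871 and 1006 in control replicates 1, 2 and 3 and 978, 933 and 1143 in the silenced cultures. Control replicate 3 exceeded silenced replicates 1 and 2, and in both groups replicate 3 was the highest culture. The log2 level was 9.78 ± 0.19 in controls and 9.99 ± 0.15 in silenced cells (SD, n = 3 each), a difference of 0.21 (SE 0.12), or 1.16-fold. Between same-numbered cultures it was 0.34, 0.10 and 0.18, positive in all 3. The size hung on single arrays: without control replicate 1, the lowest culture, it was 0.12, and without control replicate 3 it was 0.31. With arrays weighted by their estimated precision it was 0.14. The pooled within-group SD, 0.17, exceeded that of 77.2% of genes.

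Sod3, the secreted enzyme, showed the widest spread among cultures of the 4 genes and no steady direction. Its intensity was 110, 191 and 132 in control replicates 1, 2 and 3 and 133, 158 and 117 in silenced replicates 1, 2 and 3. The silenced cultures all fell inside the range of the controls, and replicate 2 was the highest in both groups. The log2 level was 7.13 ± 0.41 in controls and 7.08 ± 0.22 in silenced cells (SD, n = 3 each), with a difference of -0.06 (SE 0.19). Between same-numbered cultures the difference was 0.27, -0.27 and -0.18. Leaving out control replicate 2 turned the sign (0.16), as did leaving out Angpt2 shRNA-1 replicate 3 (0.04), whereas dropping control replicate 1 gave -0.24. The pooled within-group SD was 0.33, above that of 97.3% of genes.

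Ccs, the chaperone that loads Sod1 with copper, did not follow Sod1. Its intensity was 225, 216 and 261 in control replicates 1, 2 and 3 and 228, 231 and 193 in silenced replicates 1, 2 and 3. The highest culture was control replicate 3 and the lowest silenced replicate 3, while the other 4 lay between 216 and 231. The log2 level was 7.87 ± 0.15 in controls and 7.76 ± 0.15 in silenced cells (SD, n = 3 each), a difference of -0.11 (SE 0.11). Same-numbered cultures differed by 0.02, 0.10 and -0.44, so the negative mean came from replicate 3. Without control replicate 3 or without Angpt2 shRNA-1 replicate 3 the difference was -0.02.

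Set against each other within a culture, the ratio of Sod1 to Ccs signal was higher in every silenced culture than in any control culture. Centred on its mean over the 6 arrays, the log2 ratio was -0.22, -0.11 and -0.33 in control replicates 1, 2 and 3 and 0.08, 0.19 and 0.39 in the silenced cultures, a difference of 0.44. The ratio of Sod1 to Sod2 overlapped between groups, at 0.08, -0.06 and -0.21 in controls and 0.05, 0.25 and -0.11 in silenced cells, a difference of 0.13. That of Sod2 to Ccs differed by 0.32 with 1 silenced culture inside the control range. The ratios with Sod3 all overlapped between groups. That of Sod1 to Sod3 was at 0.11, -0.65 and -0.06 in controls and 0.16, 0.03 and 0.41 in silenced cells, a difference of 0.40. These ratios rest on the same contrast and are likewise given without a test.

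**Figure D2:**
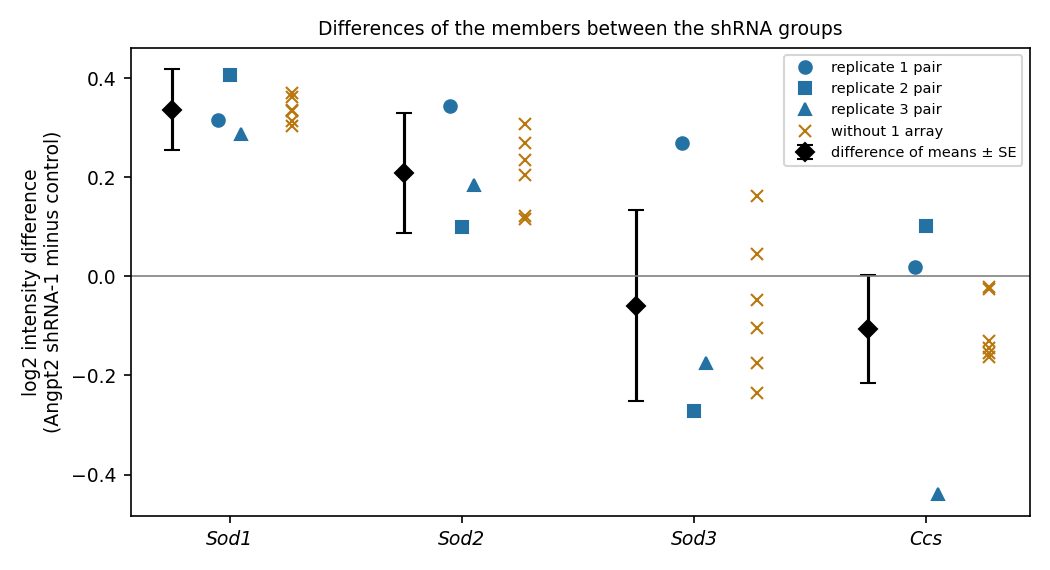
Log2 intensity difference, Angpt2 shRNA-1 minus control (y axis), of the 4 genes: black diamonds are differences of group means ± SE, blue symbols are differences between same-numbered cultures, and crosses are values with 1 array left out. Sod1 stays between 0.30 and 0.37 with any array left out, whereas Sod3 runs from -0.24 to 0.16.

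Genes that handle copper were looked at beside Sod1, Sod3 and Ccs, which need the metal. Of 19 listed, 16 were measured, 12 with a positive and 4 with a negative log2 difference. Over all genes 45.2% had a positive difference, which is the background for this list and those below. The median was 0.06 against -0.01 over all genes, and without control replicate 2 it was 0.01. limma called 0 of the 16 in either direction, and 1 had an unadjusted p under 0.05, where 3.76% of all genes did. Mtf1, the metal-responsive transcription factor that drives metallothionein genes, was at 0.51 (SE 0.17). Its intensity was 156, 264 and 173 in control replicates 1, 2 and 3 and 280.0, 283 and 262 in silenced cells, so control replicate 2 reached the silenced level, and without that array the difference was 0.74. It was 0.36 without control replicate 1. Among the metal buffers it is known to drive, Mt1 (0.07, SE 0.09) and Mt2 (0.08, SE 0.09) were bright and showed small differences.

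Atox1, the chaperone that carries copper to the exporter pumps, was at 0.16 (SE 0.09). Its intensity was 653, 562 and 659.8 in control replicates 1, 2 and 3 and 729, 690 and 672 in the silenced cultures, so its groups did not overlap, as for 3.53% of all genes in that direction. Without control replicate 2 it was at 0.09. The importer Slc31a1 (0.0012, SE 0.09), the exporter pump Atp7a (-0.11, SE 0.08), and Cox17 (0.03, SE 0.14) and Sco1 (-0.0028, SE 0.12), which bring copper to cytochrome oxidase, were not called. Ceruloplasmin, the copper ferroxidase encoded by Cp, was at 0.21 (SE 0.22), and ran from 0.02 without control replicate 3 to 0.44 without control replicate 1.

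Manganese is the cofactor of Sod2. Of 9 genes listed for its transport, not all of them established manganese transporters, 8 were measured. Of these, 2 had positive and 6 had negative differences, with a median of -0.03. None was called and none had an unadjusted p under 0.05. The largest differences were those of Slc25a40, a mitochondrial carrier (-0.18, SE 0.13, and -0.27 to -0.07 with 1 array left out), and Tmem165, a Golgi manganese transporter (0.07, SE 0.09, and 0.04 without control replicate 2 against 0.13 without control replicate 3). The importers Slc39a14 (0.01, SE 0.14) and Slc39a8 (-0.04, SE 0.09) and the mitochondrial carrier Slc25a39 (-0.03, SE 0.14) lay near 0. Slc39a8 was dim, at 55.7 to 63.9.

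Enzymes that remove the peroxide made by dismutases went both ways. Of 14 listed, 11 were measured, 4 with positive and 7 with negative differences, with a median of -0.05. limma called 0 in either direction, and 2 had an unadjusted p under 0.05, Prdx4 and Gpx4, where 3.76% of all genes did. Prdx4, the peroxiredoxin of the endoplasmic reticulum, had intensities of 121, 146 and 155 in control replicates 1, 2 and 3 and 98.9, 117 and 128 in the silenced cultures. Its groups overlapped. Between same-numbered cultures the difference was -0.29, -0.32 and -0.28, though the labels do not say what a number shares. The mean difference was -0.30 (SE 0.13, from the fit without a block). Leaving out 1 array at a time gave -0.40 to -0.20, the smallest difference being that without Angpt2 shRNA-1 replicate 1. Gpx4, which reduces lipid peroxides, was at 261, 349 and 249 in controls and at 231 in all 3 silenced cultures. Its groups did not overlap, as for 5.48% of all genes in that direction. The Gpx4 difference was -0.29 (SE 0.13), and -0.14 without control replicate 2.

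Cat, which encodes catalase, lay at 2749 to 2859 in controls and 2669 to 2710 in silenced cells. These narrow ranges did not overlap, as for 5.48% of all genes in that direction, although the difference was only -0.06 (SE 0.08). Gpx1, the main cytosolic glutathione peroxidase, was at 565, 632 and 674 in control replicates 1, 2 and 3 and at 689, 862 and 596 in silenced replicates 1, 2 and 3, a difference of 0.19 (SE 0.14) that ran from 0.04 without Angpt2 shRNA-1 replicate 2 to 0.31 without Angpt2 shRNA-1 replicate 3. The cytosolic peroxiredoxin Prdx2 (0.06, SE 0.09) and the mitochondrial Prdx3 (-0.08, SE 0.09) showed small differences. Prdx1, Prdx5 and Prdx6 were not analysed here.

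**Figure D3:**
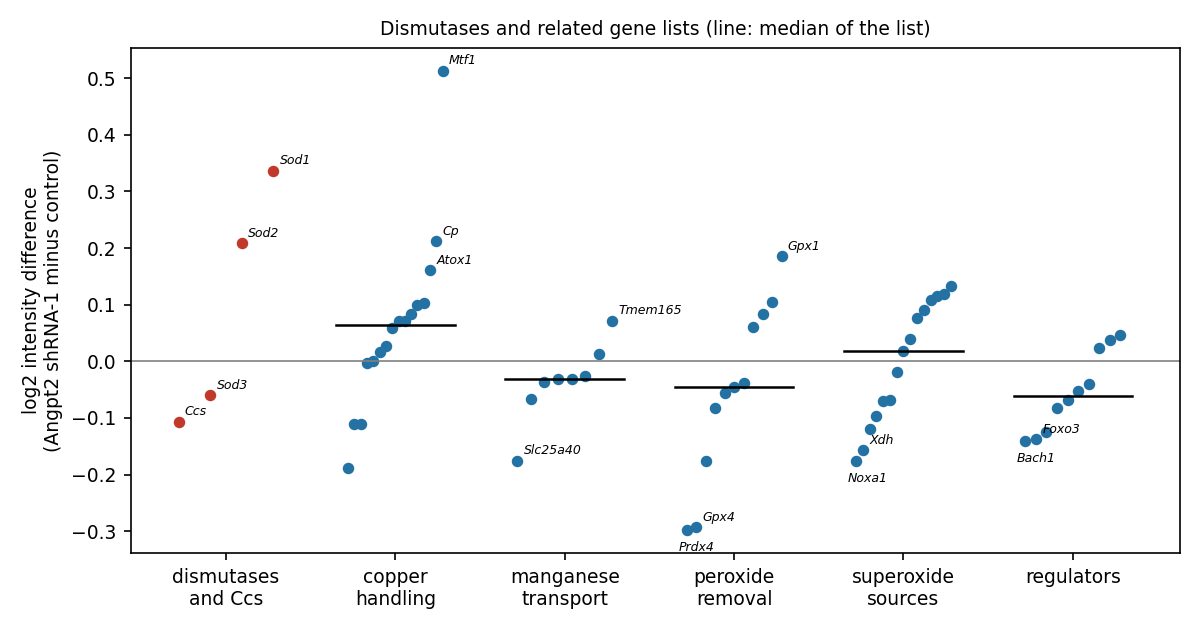
Log2 intensity difference, Angpt2 shRNA-1 minus control (y axis), of Sod1, Sod2, Sod3 and Ccs (red) and of the measured genes of 5 related lists (blue), ordered by value within a list, with a line at each list's median. List medians lie between -0.06 and 0.06, and Mtf1, at 0.51, is the gene farthest from 0.

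Sources of superoxide were mostly dim in these cells. Of 19 listed, 15 were measured, 8 with positive and 7 with negative differences and a median of 0.02, and limma called 0. None had an unadjusted p under 0.05. The NADPH oxidase gene Nox4 was at 90.8 to 114.9 (0.08, SE 0.10). Cyba, the shared membrane subunit p22phox, was at 209 to 256 (-0.07, SE 0.10), and Rac1, the GTPase that activates several oxidases, at 2708 to 2908 (0.02, SE 0.08). Xdh, the xanthine oxidoreductase gene, was at 62.9, 65.0 and 65.8 in controls and 61.9, 55.2 and 56.9 in silenced cells (-0.16, SE 0.08). Noxa1, an oxidase activator, was at -0.18 (SE 0.16), and ran from -0.30 without control replicate 2 to -0.01 without Angpt2 shRNA-1 replicate 3. Groups did not overlap for Xdh and Ncf4 (-0.07, SE 0.08), lower in silenced cells (5.48% of all genes in that direction), and for Nox1 (0.13, SE 0.09, and 0.07 without control replicate 2), higher (3.53% of all genes). Nox1 and Ncf4 were picked out after their values were seen, and all 3 had intensities of at most 89.1, which cannot be told from background.

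A list of regulators linked to dismutases, not all of them transcription factors, showed small differences. Of 11 listed, 10 were measured, 3 with positive and 7 with negative differences and a median of -0.06. limma called 0, and none had an unadjusted p under 0.05. Nfe2l2, which encodes the antioxidant response factor NRF2, was at -0.05 (SE 0.09) and its inhibitor Keap1 at 0.04 (SE 0.09). Sp1, which binds GC boxes such as those marked in both windows, was at -0.04 (SE 0.09), and Foxo3, an activator of Sod2, at -0.14 (SE 0.11) with -0.04 when Angpt2 shRNA-1 replicate 1 was left out, -0.06 when control replicate 1 was, and -0.21 when Angpt2 shRNA-1 replicate 3 was. Bach1, a repressor at antioxidant response elements, was at 242, 270.1 and 245 in control replicates 1, 2 and 3 and 238, 210.1 and 240 in silenced cells (-0.14, SE 0.09), without overlap (5.48% of all genes in that direction) but with silenced replicate 3 close below the lowest control. Its difference was -0.08 without Angpt2 shRNA-1 replicate 2 and -0.09 without control replicate 2. Array signals report transcript and not protein or nuclear factor.

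Genes next to the 4 on the chromosome were read for the same contrast. By the RefSeq gene order, Scaf4, the neighbour of Sod1, was at -0.04 (SE 0.09), with intensities of 733 to 861. The Scaf4 difference was -0.08 without control replicate 1 and turned to 0.02 without control replicate 2 and to 0.0038 when Angpt2 shRNA-1 replicate 3 was dropped. Wtap, the neighbour of Sod2 and part of the RNA methylation machinery, was at 0.29 (SE 0.16), and ran from 0.15 without control replicate 2 to 0.44 without Angpt2 shRNA-1 replicate 1. On either side of Sod3, Ccdc149 was at -0.03 (SE 0.13) and the noncoding C130083M11Rik at 0.11 (SE 0.08). Ccdc149 had intensities of 71.1 to 99.0. C130083M11Rik was dim (56.6 to 64.8) and lay 147371 bases from Sod3. Ccdc87, the neighbour of Ccs, was at -0.05 (SE 0.11) and dim (50.6 to 65.6). None of these 5 was called, and the remaining neighbours were not analysed here.

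The genes whose pattern over the 6 arrays lay nearest to each of the 4 were sought among 11089 others above the median level, by the root mean square difference of log2 values centred on each gene's mean. The nearest to Sod1 were C1qbp (0.03), Mtif3 (0.05) and Acsbg1 (0.05). C1qbp, a mitochondrial matrix protein, had log2 deviations of -0.22, -0.25 and -0.10 in controls and 0.13, 0.25 and 0.18 in silenced cells. The nearest to Sod2 were Sdc4 (0.04), Nsdhl (0.04) and Coasy (0.05), all lowest on control replicate 1 and highest on silenced replicate 3, like Sod2 itself.

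The nearest to Sod3 were Nqo1 (0.06), Rpia (0.07) and Grwd1 (0.07). Nqo1, a quinone reductase, was at 0.53 on control replicate 2 and 0.15 on silenced replicate 2, and below its mean on the other 4 arrays. The nearest to Ccs were Tbcb (0.03), Sall2 (0.04) and Nsfl1c (0.05), each highest on control replicate 3 and lowest on silenced replicate 3. Genes were picked for this likeness from a large table and over only 6 arrays, so the likeness is a description.

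**Figure D4:**
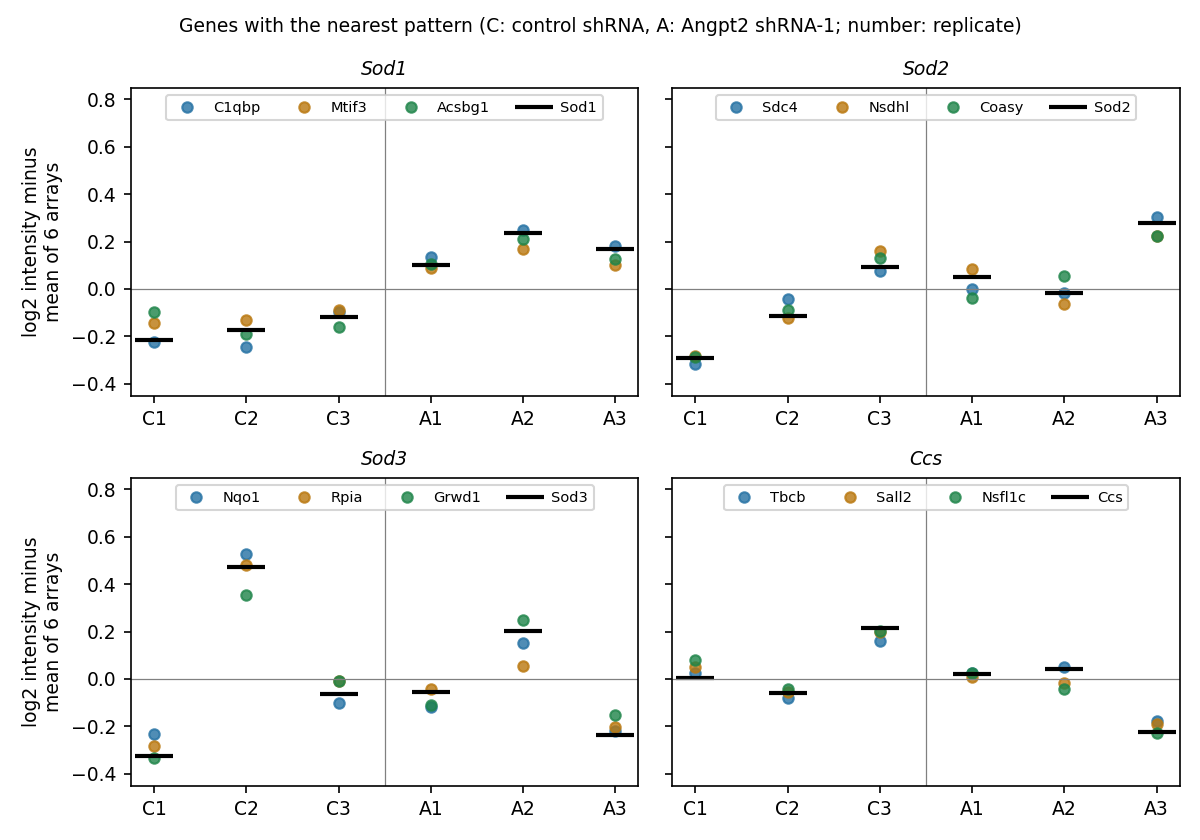
Log2 intensity minus the mean of the 6 arrays (y axis) for each of the 4 genes (black bars) and the 3 genes with the nearest pattern (dots), by array (C1 to C3 control shRNA, A1 to A3 Angpt2 shRNA-1). Only the Sod1 panel separates the groups, and in the Sod3 panel the replicate 2 arrays are the highest in both groups.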

How the data were processed

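The deposited table holds 1 value per transcript cluster and array. Per the labels, arrays were Affymetrix Mouse Gene 2.0 ST, with 100 ng of RNA per sample. The deposited values are intensities normalized by the authors; their range shows a linear scale, and the method and genome build are not given in the sources used here. Of 41345 clusters, 23521 carried 1 symbol, 1814 several and 16010 none; 40425 had values on all arrays.

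Log2 values, with no pseudocount added, were fitted over 22180 genes by genotype label in limma 3.58.1 under R 4.3.3 (lmFit, eBayes; two-sided; Benjamini-Hochberg; threshold 0.05). The fit was tested on simulated data. SEs are from this fit, in which eBayes draws each gene's variance toward a value shared by all genes. They can thus be larger or smaller than the spread of a gene's own cultures would give. SDs are between cultures, labelled as biological replicates. The number of arrays limits the precision. No arrays were identical, and correlations within groups were 0.978 to 0.990.

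The 4 genes and the lists were chosen with earlier results of these data known. Of 107 list genes 94 were measured. Named are the 4 genes, Angpt2, a fixed core of each list, each list's 2 largest absolute differences, nearest patterns and neighbours; cell identity markers, genes without overlap and genes called under an alternative were named besides.

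Each control array correlated most with the silenced array of the same number (0.13, 0.21 and 0.14), which meets the rule used for pairing. With 3 cultures per group few other orders were possible, so unpaired cultures could give this order too. Whether same-numbered cultures are truly paired was not tested, and the labels do not say what a number shares. The reported SEs and counts are without a block; blocking on the number is an alternative. Alternatives were this block, quantile normalization, median centring, a filter on dim genes, cluster averaging, all clusters, a robust trended prior, weighted arrays, pseudocounts (1 or 16) and leaving out each array.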

Additional observations from a re-analysis of the deposited data

How the results depend on the processing

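Sod1, Sod2 and Ccs kept the sign of their difference under all 13 alternatives run on them. Some of these could not change a sign. The replicate block leaves each difference as it is, and so does averaging clusters, as each gene has 1. For Sod1, whose groups did not overlap, leaving out an array could not change the sign either. With 1 array left out the difference was 0.30 to 0.37 for Sod1 and 0.12 to 0.31 for Sod2. It was -0.24 to 0.16 for Sod3, changing sign, and -0.16 to -0.02 for Ccs. The count of genes called by limma, 0, became 2 with the replicate number as a block (Angpt2 and Pld4), 1 with trend and robust options (Pld4) and 0 to 2 with an array left out: Angpt2 without control replicate 1, and Btbd35f12 and Plekho1 without control replicate 2. Angpt2 stayed at -1.33 with the replicate block (adjusted p = 0.046) and ranged from -1.61 to -1.14 with an array left out (adjusted p = 0.0116 without control replicate 1). The block changed no other call. List medians with an array left out ranged from 0.011 to 0.080 for copper handling, -0.067 to -0.0056 for manganese transport, -0.062 to -0.011 for peroxide removal and -0.11 to -0.048 for regulators. For superoxide sources it was 0.0056 to 0.017, and 0.0085 with array weights. Peroxide removal was at -0.024 with array weights. The cause of these shifts was not tested. Without detection calls, Sod3 and the dim genes of the lists carry an unknown share of background.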
